A study of Oryctolagus cuniculus with 6 samples.

Results

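FGFBP1, AREG, EREG, HBEGF, TGFA and EGFR are 6 genes of epithelial growth factor signalling, and they were followed here in bulk RNA of tracheal mucosa, taken from 3-month-old New Zealand rabbits. The genes were taken by symbol from the deposited table of gene counts. All 6 had a row there, out of 29587 genes, of which 16151 carried a symbol. They were picked with their difference between the groups already known, so that difference is given as a description, without a test. In the high cuff pressure group, 3 rabbits received a tracheal tube of 3.0 mm, passed to 13 cm, with its cuff held at 35 cmH2O over 2 h. The control group held 3 rabbits of the same kind. The handling of the controls, and whether they were intubated, is not stated in the sources used here, nor is the interval from cuff release to sampling. No genetic change is named for either group.

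The EGF family consists of growth factors made as membrane-anchored precursors, which metalloproteinases, chiefly ADAM17, cut loose from the cell surface. AREG (amphiregulin), EREG (epiregulin), HBEGF (heparin-binding EGF-like growth factor) and TGFA (transforming growth factor alpha) are such ligands, and EGFR is the receptor tyrosine kinase they bind. Activated EGFR signals through RAS and ERK and through PI3K and AKT, and in the airway it is known for driving epithelial spreading and division during wound closure. FGFBP1 is a secreted carrier that releases fibroblast growth factors from heparan sulphate in the matrix.

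The 6 libraries held 10501734 to 14415754 counts, so 3 counts correspond to 0.208 to 0.286 CPM, the usual scaling of counts to a fixed library total. Libraries of the control group were more alike (Pearson's r of log2 CPM across genes, 0.949 to 0.960) than those of the high cuff pressure group (0.899 to 0.929). High cuff pressure replicate 1 stood about as close to control replicate 1 (0.897) as to high cuff pressure replicate 3 (0.899). Mitochondrial transcripts took 30.5%, 27.8% and 28.1% of the counts in high cuff pressure replicates 1 to 3 and 11.5%, 5.28% and 7.38% in control replicates 1 to 3. The samples are labelled as epithelial cells, and the epithelial genes EPCAM and CDH1 were present in all 6 libraries, at 124 to 213 and 115 to 256 CPM. Markers of other cell types were present too, as in whole mucosa. Neutrophil markers summed to 1483 to 6812 CPM under high cuff pressure and to 6.95 to 422 in the controls, with MMP8 at 0 in every library. In such bulk samples, more cells of a type and more RNA per cell cannot be told apart.

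CPM values are after trimmed-mean (TMM) scaling unless a per-length level (FPKM) is named. Of all 13724 genes tested with edgeR's quasi-likelihood test, 5.28% passed a Benjamini-Hochberg adjusted p of 0.05, 3.67% as higher and 1.62% as lower, or 503 and 222 genes. An unadjusted p under 0.05 by edgeR was reached by 4015 of the 13724, so list counts at that level are to be read beside this number. Scaled by total counts alone, the split of calls was 389 higher and 1241 lower, with a median log2 fold change of -0.40 over all genes. DESeq2 called 2631 of the 13724, and its counts per list are to be read beside that. In 37.3% of all genes tested the groups did not overlap, 18.6% as higher and 18.7% as lower. Against these shares, 5 of the 6 genes could be tested and 1, FGFBP1, stood among the higher calls. The groups did not overlap for FGFBP1 and AREG, which were higher, and for EREG, which was lower. They overlapped for HBEGF, TGFA and EGFR. These counts follow from how the genes were picked and are read no further. The calls rest on the full set of libraries: without control replicate 2, or without control replicate 3, edgeR passed 0 genes of the table, with 2691 and 2496 at an unadjusted p under 0.05, and every count of passing genes from edgeR with TMM scaling given here is then 0. Other tools and scalings were not refitted without these libraries.

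FGFBP1 (ENSOCUG00000016098, chromosome 2, 6429887 to 6443936, minus strand, in deposited coordinates that come without a named build) was nearly absent from the controls and readily detected under high cuff pressure. High cuff pressure replicates 1, 2 and 3 held 217, 213 and 130 counts, against 5, 1 and 2 in the controls. In CPM these were 21.4, 25.1 and 9.85 against 0.427, 0.0643 and 0.146. Every high cuff pressure library lay far above every control, including the lowest of them, replicate 3. The group means were 18.8 ± 7.94 and 0.213 ± 0.190 CPM (SD, n = 3 each). The fitted log2 fold change was 6.48 ± 0.67 (SE), or 89.0-fold. Among the 11139 tested genes with a symbol it ranked 9 by log2 fold change. FGFBP1 passed the filter on low counts only through its high cuff pressure libraries, so it could not have been tested without differing. The size of the fold rests on 8 control counts: the ratio of summed counts, scaled by library size, was 90.1, with an exact 95% interval of 45.4 to 210 that covers counting error only. Without control replicate 1, which held 5 of the 8 counts, the log2 fold change was 7.37.

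Markers of several cell types differed between the same groups, not all in the same direction. Over all genes tested, edgeR called 3.67% higher and 1.62% lower. The summed neutrophil markers were 6812, 3615 and 1483 CPM in high cuff pressure replicates 1 to 3 and 74.5, 6.95 and 422 in control replicates 1 to 3, and 6 of 7 tested markers were called higher by edgeR. The summed squamous epithelial markers were 1220, 2859 and 3219 CPM against 1324, 1023 and 654, with 3 of 4 tested markers called higher. Those 3 were KRT16, a keratin of wounded epithelium, the cross-linking enzyme TGM1 and the protease inhibitor SERPINB2. KRT16 alone stood at 76.0, 87.7 and 69.8 CPM against 6.15, 3.02 and 2.41. Among the high cuff pressure libraries, FGFBP1 was highest in replicate 2, the neutrophil sum in replicate 1 and the squamous sum in replicate 3. The basal cell sum was 675, 1172 and 2839 CPM against 805, 801 and 606, with 0 of 6 tested markers called. The sum of general epithelial markers was 2143, 2261 and 2141 CPM against 1457, 1499 and 1564. Of the 8 tested epithelial markers 1 was called higher, and 4 had positive and 4 negative log2 fold changes. Of monocyte and macrophage markers 4 of 10 were called higher (sums of 212 to 398 CPM against 116 to 246), with 6 positive and 4 negative log2 fold changes. Of B and plasma cell markers 2 of 5 were called lower (108 to 222 against 479 to 1212), as were 2 of 8 of fibroblasts (280 to 1593 against 1375 to 2382). All 9 multiciliated cell markers had negative log2 fold changes, with 0 called and 3 at an unadjusted p under 0.05 (873 to 2414 against 2732 to 3956). The 5 tested smooth muscle markers and the 3 tested T cell markers also had negative log2 fold changes throughout, with 0 called. The part of these cell types and of the mitochondrial share in the FGFBP1 difference was not tested.

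**Figure D1:**
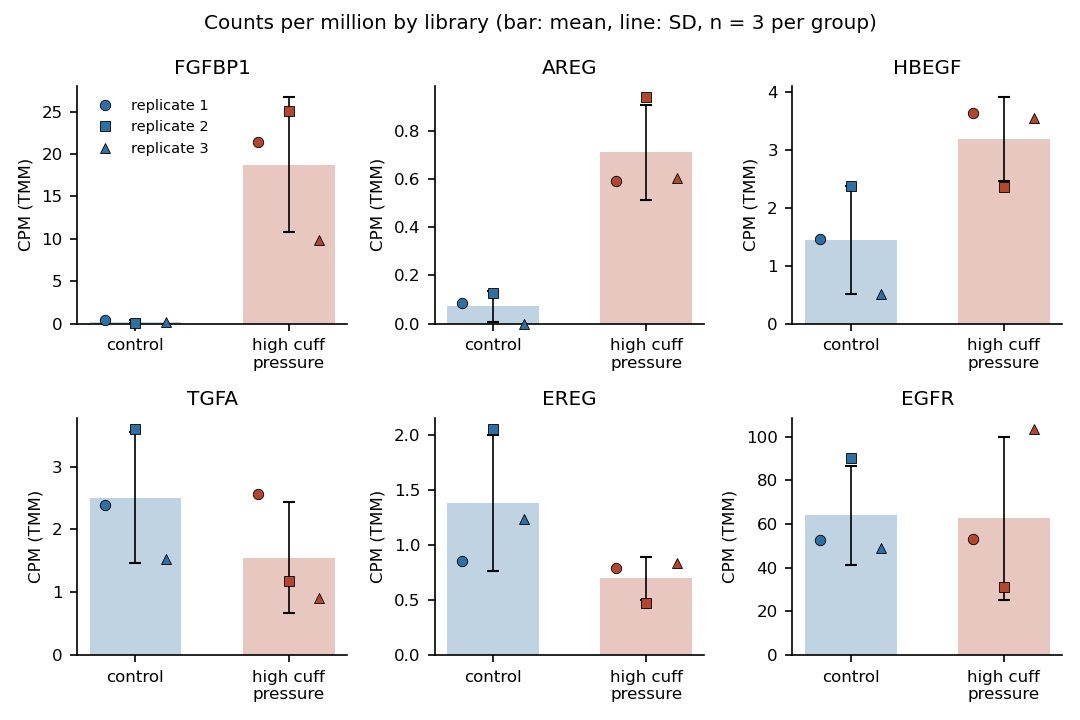
TMM-scaled CPM (vertical axes, linear from 0, each panel on its own scale) of FGFBP1, AREG, HBEGF, TGFA, EREG and EGFR in 3 control and 3 high cuff pressure libraries. Points are libraries, shaped by replicate number, which by the labels pairs no rabbits, bars are means and lines the SD. FGFBP1 and AREG lie wholly higher under high cuff pressure, EREG wholly but narrowly lower, and the other 3 genes overlap.

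Among the ligands, AREG was the scarcest per length in the controls. AREG (ENSOCUG00000016286, chromosome 15, 75825169 to 75835546, minus strand) had 6, 8 and 8 counts in high cuff pressure replicates 1 to 3 and 1, 2 and 0 in control replicates 1 to 3. In CPM that was 0.592, 0.941 and 0.606 against 0.0855, 0.129 and 0. Each high library exceeded each control, at levels only a few counts above the floor of 3. AREG failed the filter on low counts and has no place in the fit across genes. Fitted with no filter, its log2 fold change was 3.09 ± 0.89 (SE). The ratio of summed counts was 9.43, with an exact 95% interval from counting alone of 2.83 to 49.2, and it was 17.6 without control replicate 2 and 6.27 without control replicate 3. In the authors' deposited table of pathways, AREG is the 1 gene listed as higher among the 4 listed for ErbB signalling, of 60 genes in that pathway. The other 3, listed as lower, are EGF, PIK3CA and CDKN1B. That list comes from the same 6 libraries, so it is not independent of the counts above. The authors' share of calls over all genes is not given here, and their numbers are read no further.

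EREG, a ligand that also binds ERBB4, differed in the other direction. EREG (ENSOCUG00000016277, chromosome 15, 75880524 to 75904763, minus strand) had 8, 4 and 11 counts under high cuff pressure and 10, 32 and 17 in the controls. The CPM values were 0.789, 0.471 and 0.833 against 0.855, 2.06 and 1.24. The groups did not overlap, but the highest high cuff pressure library and the lowest control were nearly level. The log2 fold change was -0.97 ± 0.52 (SE), and leaving out 1 library at a time gave -1.20 to -0.57.

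HBEGF, which binds heparan sulphate as well as EGFR, was detected in every library. HBEGF (ENSOCUG00000015909, chromosome 3, 22486166 to 22495504, minus strand) had 37, 20 and 47 counts under high cuff pressure and 17, 37 and 7 in the controls. In CPM it stood at 3.65, 2.35 and 3.56 against 1.45, 2.38 and 0.510. High cuff pressure replicates 1 and 3 were the highest libraries, while replicate 2 fell just under control replicate 2, so the groups overlapped. The means were 3.19 ± 0.72 and 1.45 ± 0.94 CPM (SD, n = 3 each), and the log2 fold change was 1.13 ± 0.56 (SE), with 0.73 to 1.71 over the libraries left out in turn.

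TGFA, a classical ligand of EGFR in epithelia, had a lower mean under high cuff pressure, with libraries that overlapped. TGFA (ENSOCUG00000029636, chromosome 2, 115617959 to 115717945, plus strand) had 26, 10 and 12 counts under high cuff pressure and 28, 56 and 21 in the controls. The CPM values were 2.56, 1.18 and 0.909 against 2.39, 3.60 and 1.53. High cuff pressure replicate 1 lay within the range of the controls, and the other 2 lay below it. The log2 fold change was -0.70 ± 0.54 (SE), from -1.27 without high cuff pressure replicate 1 to -0.34.

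The receptor itself was the most abundant of the 6 genes per length in the controls and showed no common direction. EGFR (ENSOCUG00000010481, chromosome 10, 45661933 to 45804236, minus strand) had 541, 263 and 1368 counts under high cuff pressure and 619, 1400 and 673 in the controls. In CPM these were 53.3, 30.95 and 104 against 52.9, 90.1 and 49.05. The highest and the lowest of all 6 libraries were both high cuff pressure libraries, replicates 3 and 2. The means were 62.6 ± 37.2 and 64.0 ± 22.7 CPM (SD, n = 3 each), and the log2 fold change was -0.03 ± 0.45 (SE). It ranged from -0.60 to 0.30 with 1 library left out, so its sign depended on which libraries were used. By mean CPM, which is not per length and so is not compared between genes, EGFR stood at the 78.2 percentile of the tested genes with a symbol.

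**Figure D2:**
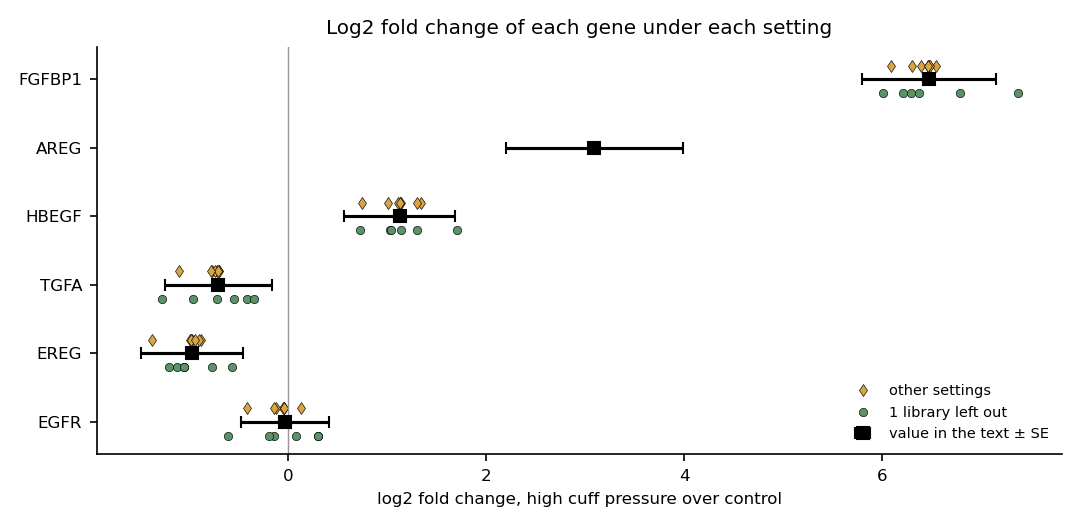
Log2 fold change of high cuff pressure over control (horizontal axis) for each gene. Squares are the values in the text with their SE, diamonds other normalizations and tools, and circles the fits with 1 library left out; AREG has only its fit with no filter. FGFBP1 stays between 6.01 and 7.37, HBEGF above 0, TGFA and EREG below 0, and EGFR lies on both sides of 0.

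Levels of different genes can be compared only per length, here in the authors' FPKM, over transcript lengths in the deposited table of 738 bases for FGFBP1 to 5025 for EGFR. Under high cuff pressure the mean FPKM ran from FGFBP1 (21.9 ± 8.39, SD, n = 3) and EGFR (11.1 ± 7.09) through HBEGF (3.06 ± 0.85), TGFA (1.23 ± 0.73) and AREG (0.621 ± 0.129) to EREG (0.311 ± 0.104). The ranges of FGFBP1 and EGFR overlapped, as did those of HBEGF and TGFA and those of TGFA and AREG. EGFR lay wholly above HBEGF, and AREG wholly above EREG. In the controls the order was EGFR (14.8 ± 6.04), TGFA (2.63 ± 1.20), HBEGF (1.81 ± 1.25), EREG (0.819 ± 0.412), FGFBP1 (0.313 ± 0.254) and AREG (0.0822 ± 0.0790). There, EGFR lay wholly above the rest, and each of the other neighbours in the order overlapped the next.

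The order of the genes within a library also differed between the groups. FGFBP1 was first of the 6 genes by FPKM in high cuff pressure replicates 1 and 2 and second, behind EGFR, in replicate 3. In the controls it ranked behind TGFA and HBEGF in replicate 1, last in replicate 2 and ahead of AREG alone in replicate 3. HBEGF exceeded TGFA in every high cuff pressure library, with ratios of HBEGF to TGFA of 1.71, 2.40 and 4.69, and it was below TGFA in every control, with ratios of 0.728, 0.792 and 0.399. HBEGF over EREG was 9.97, 10.8 and 9.21 against 3.66, 2.49 and 0.888. TGFA over EGFR was 0.220, 0.174 and 0.0401 against 0.207, 0.183 and 0.143, and these overlapped. The ratios do not depend on how the libraries were scaled, although they rest on counts as low as 4 for EREG and 7 for HBEGF.

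All 7 ligands known to bind EGFR had a row, which allowed the makeup of the ligand transcripts to be given for each library as shares of their summed FPKM. EGF, the founding member of the family, took 10.7%, 9.72% and 15.2% in high cuff pressure replicates 1 to 3 and 44.1%, 15.8% and 52.5% in control replicates 1 to 3. HBEGF took 37.7%, 42.1% and 50.9% against 16.0%, 23.9% and 6.89%. AREG took 5.67%, 15.6% and 8.04% against 0.875%, 1.20% and 0%. The shares of HBEGF and AREG were thus higher in each high cuff pressure library than in each control, and that of EGF was lower, with control replicate 2 close to the high libraries. EREG took 3.78%, 3.91% and 5.53% against 4.38%, 9.58% and 7.77%, and its shares overlapped between the groups. TGFA (16.9% ± 5.67 against 23.2% ± 6.52, SD, n = 3 each), betacellulin (BTC, 11.7% ± 4.51 against 13.6% ± 4.41) and epigen (EPGN, 1.80% ± 1.36 against 2.27% ± 1.35) overlapped too. Shares depend on each other. With EGF left out of the sum, TGFA took 24.8%, 19.5% and 12.8% against 39.5%, 35.8% and 36.3%. EREG then took 4.24%, 4.33% and 6.52% against 7.84%, 11.4% and 16.3%. Both were wholly lower on that basis, HBEGF and AREG stayed wholly higher, and BTC and EPGN overlapped. Counted by CPM in place of FPKM, which favours long transcripts, the mean share of EGF was 35.1% against 64.6%. The shares of EGF by CPM were 31.8%, 31.0% and 42.4% against 74.3%, 41.3% and 78.2%. High cuff pressure replicate 3 thus lay above control replicate 2, and the groups overlapped. By CPM the shares of HBEGF and AREG stayed wholly higher.

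The 7 ligands together came to 9.41, 4.92 and 6.97 FPKM under high cuff pressure and 10.2, 13.2 and 9.68 in the controls, with the former all lower. FPKM are scaled by total counts and not by TMM. Scaling by total counts put the median log2 fold change of all genes at -0.40. The gap between these sums is therefore not free of the scaling and is read no further. Without EGF the sums were 8.40, 4.45 and 5.91 against 5.68, 11.1 and 4.60, and the groups overlapped. EGFR was 1.01, 1.01 and 2.71 times the summed ligands under high cuff pressure and 1.07, 1.65 and 1.21 times in the controls, also overlapping. EPGN, with 15 counts in the high libraries and 23 in the controls, overlaps MTHFD2L in part on the same strand, so reads of the pair may not be separable.

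**Figure D3:**
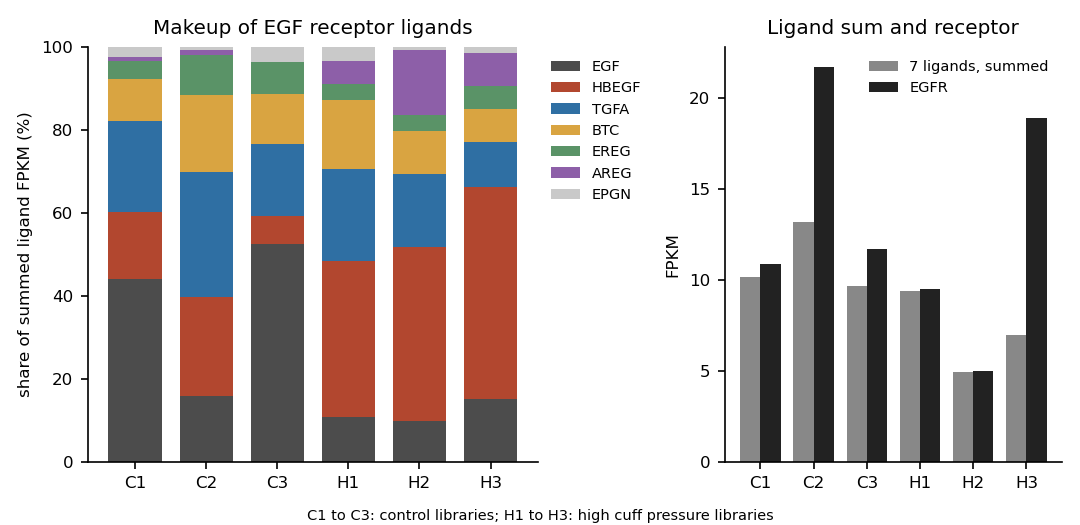
Left, share of each of the 7 EGF receptor ligands in their summed FPKM (vertical axis, percent) for control libraries C1 to C3 and high cuff pressure libraries H1 to H3. HBEGF is the widest band in H1 to H3, at 37.7% to 50.9%, and EGF is the widest in C1 and C3, at 44.1% and 52.5%. Right, the summed ligand level and the EGFR level in FPKM for the same libraries.

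AREG, EREG, EPGN and BTC lie within a single stretch of chromosome 15, where BTC begins at 75473091 and EPGN ends at 75996158. These genes did not all share a direction. AREG was higher and EREG lower. BTC (log2 fold change -0.42, adjusted p = 0.665) and EPGN (-0.29 ± 0.81, SE, fitted with no filter) also had negative values, with overlapping groups. Farther along the same chromosome, the neutrophil-attracting chemokines CXCL5 (5.45, adjusted p = 0.011) and CXCL8 (3.93, adjusted p = 0.041) rose. Around FGFBP1 on chromosome 2, its relative FGFBP2 had 24 counts in the high libraries and 23 in the controls. The next gene on the other side, CD38, had a log2 fold change of -0.17 with an adjusted p of 0.867. All adjusted p are from edgeR, over every gene tested. FGFBP2, CD38 and the ligand genes of chromosome 15 were taken by position among genes with a symbol. CXCL5 and CXCL8 were not: MTHFD2L lies nearer to the ligand genes and had a log2 fold change of 0.14 (adjusted p = 0.841).

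The genes whose profile over the 6 libraries was most like that of each gene were found by the root-mean-square difference of log2 CPM, each gene's own mean taken off, among 10984 genes with a symbol and a mean of at least 1 CPM. Nearest to FGFBP1 were ARG1, which encodes arginase (0.401), CXCR1, a receptor for interleukin 8 (0.565), and FPR1, a receptor for bacterial formyl peptides (0.622). CXCR1 and FPR1 are both among the neutrophil markers summed above. ARG1 stood at 12.2, 19.1 and 8.56 CPM in high cuff pressure replicates 1 to 3 and at 0.513, 0.0643 and 0 in control replicates 1 to 3. The genes nearest to EGFR were TP63, a transcription factor of basal cells (0.061), GPR161 (0.103) and CLCA2 (0.113). The difference grows with the span of a profile, so its size is not compared between FGFBP1 and EGFR. With profiles divided by their SD, the nearest gene was RELT for FGFBP1 (0.070) and TP63 for EGFR (0.093). TP63 stood at 32.7, 17.8 and 57.0 CPM against 28.7, 49.4 and 27.0, the same order of libraries within each group as for EGFR. Nearest to AREG were EMP3 (0.126), UBE2S (0.178) and SH3BGRL3 (0.186), and nearest to EREG were ZNF8 (0.080), PREPL (0.091) and FHDC1 (0.111). For HBEGF they were ALOX12 (0.296), OSMR, a receptor subunit for oncostatin M (0.306), and RPS29 (0.327), and for TGFA they were AFF3 (0.141), HEATR4 (0.144) and ELOVL5 (0.177). When profiles were first divided by their SD, only 5 of these 18 genes were named again, so the names depend on the measure. With so few libraries, near profiles at low counts are a description only.

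Around these genes, 10 lists of the EGF and FGF pathways held 117 genes, of which 96 had a row and 83 were tested. By edgeR 2 rose and 1 fell, which is 3.61% against the 5.28% of all genes. Of all 83, 42 had a positive and 41 a negative log2 fold change, and the median was 0.00 against -0.01 over all genes tested. The transcription factor ETV4, a known target of ERK signalling, rose, from 5.98, 1.03 and 1.60 CPM in the controls to 25.5, 23.5 and 25.7 (log2 fold change 3.13 ± 0.62, SE, adjusted p = 0.036). AKT2, a kinase downstream of PI3K, rose from 60.1, 54.8 and 45.3 CPM to 117, 254 and 120 (1.62 ± 0.34, adjusted p = 0.043). PIK3CA, the catalytic PI3K subunit, fell from 21.1, 24.1 and 23.9 CPM to 9.46, 7.77 and 11.8 (-1.25 ± 0.26, adjusted p = 0.042). In each of the 3, every high cuff pressure library lay beyond every control. The calls of AKT2 and PIK3CA held only without high cuff pressure replicate 1 when libraries were left out in turn, with adjusted p of 0.053 to 0.180 otherwise. That of ETV4 also held without control replicate 1 (0.030), and was lost without any of the other 4 (0.068 to 0.150).

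The list of ligand shedding holds the proteases that release the ligands, their cofactors and an inhibitor, TIMP3. Of its 10 tested genes, 0 passed edgeR's adjusted threshold and 8 had an unadjusted p under 0.05, beside 4015 of all 13724 genes. Limma-voom also called 0. DESeq2 called 5 (ADAM10, ADAM15, ADAM17, RHBDF1 and RHBDF2), beside 2631 of all 13724 genes. In all 10 the groups did not overlap, 7 as higher and 3 as lower, ADAM9, ADAM10 and TIMP3, beside the 18.6% and 18.7% of all genes. ADAM17, the main sheddase of AREG, HBEGF and TGFA, had 101, 91.9 and 107 CPM under high cuff pressure and 71.4, 62.3 and 69.6 in the controls (log2 fold change 0.56 ± 0.19, SE, adjusted p = 0.101). Its partners RHBDF1 and RHBDF2, which carry it to the cell surface, had log2 fold changes of 1.44 ± 0.34 (adjusted p = 0.051) and 0.81 ± 0.22 (0.068). ADAM9, with the highest mean CPM of the list, had 185, 64.6 and 70.0 CPM against 197, 214 and 298 (-1.15 ± 0.43, adjusted p = 0.127). ADAM10, the sheddase of EGF and betacellulin, had -0.80 ± 0.26 (0.095). Of the genes described here, only ADAM9 was chosen by a rule, and the others were named after their values were seen.

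**Figure D4:**
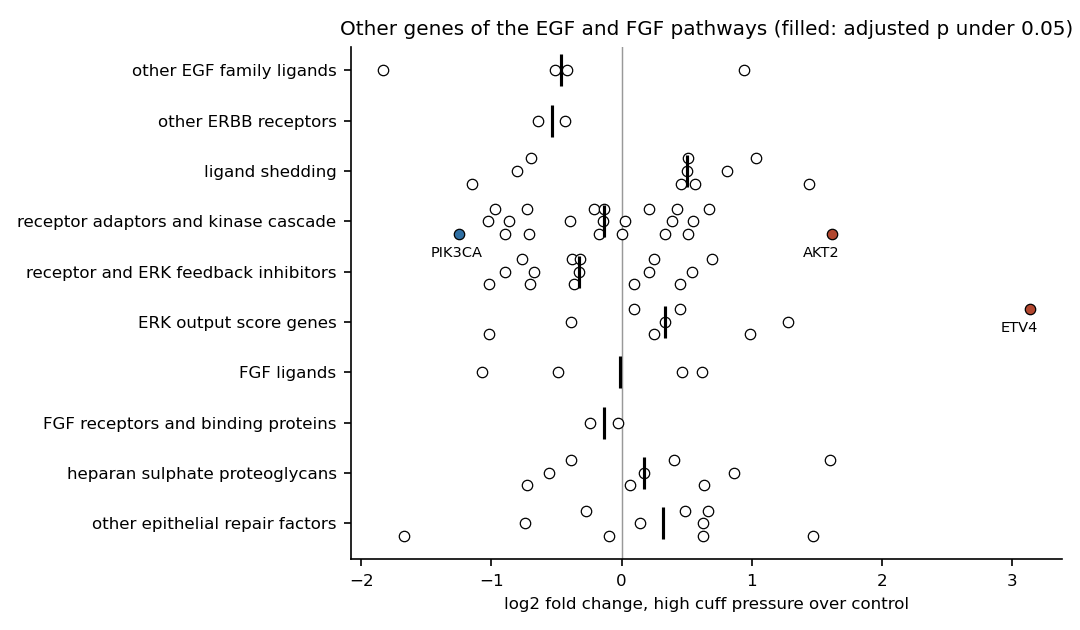
Log2 fold change of high cuff pressure over control (horizontal axis) for each tested gene of the 10 pathway lists (rows); vertical ticks are list medians. Filled points are the 3 genes that passed edgeR's adjusted p of 0.05: ETV4 and AKT2 higher, PIK3CA lower. The ligand shedding row has 7 genes to the right of 0 and 3 to the left.

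The other ligands and receptors of the family gave 0 calls by edgeR among 4 and 2 tested genes, with 2 and 0 at an unadjusted p under 0.05. Limma-voom called 0 in either list, and DESeq2 called EGF alone. NRG1, a ligand of ERBB3 and ERBB4 with the highest mean CPM of the other ligands, had 37.8, 17.2 and 36.5 CPM under high cuff pressure and 17.6, 18.4 and 11.7 in the controls (log2 fold change 0.94 ± 0.36, SE, adjusted p = 0.133). EGF, named here because of its share above, had 4.93, 2.59 and 5.08 CPM against 19.1, 7.53 and 18.5 (-1.83 ± 0.46, adjusted p = 0.058), with every high cuff pressure library below every control. ERBB2, the partner that binds no ligand of its own, had 143, 194 and 123 CPM against 163, 212 and 246 (-0.43 ± 0.26, adjusted p = 0.303).

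Genes that restrain or report the pathway gave few calls. Of 15 tested feedback inhibitors, 0 passed and 4 had an unadjusted p under 0.05, with 6 positive and 9 negative log2 fold changes and a median of -0.32. Limma-voom also called 0 of them and DESeq2 called 1, LRIG3. LRIG1, which lowers EGFR at the cell surface and had the highest mean CPM of them, stood at 159, 139 and 198 CPM against 209.5, 209.8 and 202 (-0.32 ± 0.21, adjusted p = 0.341). Of 9 tested genes used as readouts of ERK activity, 1 passed by edgeR, ETV4, with 7 positive and 2 negative log2 fold changes and a median of 0.33. DESeq2 called 2 of them, EPHA2 and ETV4. SPRY2, SPRY4, DUSP4 and DUSP6 are counted both as feedback inhibitors and as readouts, so these lists are not separate. Among the 22 tested adaptors and kinases, 1 rose and 1 fell by edgeR, AKT2 and PIK3CA, with a median of -0.14. Limma-voom called the same number, 2, while DESeq2 called 5 (AKT2, GAB1, PIK3CA, PIK3R1 and SOS2) and edgeR with total counts also called 5.

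None of the tested partners of FGFBP1 passed edgeR's test. Only 4 of 10 fibroblast growth factor genes with a row passed the filter, and 0 were called by edgeR, DESeq2 or limma-voom or had an unadjusted p under 0.05 by edgeR. FGF1, with the highest mean CPM of them, had 6.01, 3.06 and 2.27 CPM under high cuff pressure and 4.19, 10.9 and 8.67 in the controls (log2 fold change -1.07 ± 0.50, SE, adjusted p = 0.200), with overlapping groups. FGF2, a well-known cargo of FGFBP1, did not pass the filter, with 13 counts in the high libraries and 17 in the controls. Of the receptors, FGFR2, whose epithelial form binds FGF7 and FGF10, had 92.5, 141 and 245 CPM against 211, 169 and 109 (-0.03 ± 0.39, adjusted p = 0.968). Of 9 tested heparan sulphate proteoglycans, the matrix store from which FGFBP1 frees its cargo, 0 passed and 3 had an unadjusted p under 0.05, with a median of 0.17. Limma-voom called 0 of them, and DESeq2 called CD44 and SDC1. HSPG2, with the highest mean CPM (not per length), had 70.6, 195 and 295 CPM against 152, 273 and 112 (0.06 ± 0.53, adjusted p = 0.954). Among 10 tested genes of other epithelial repair factors, 0 passed by edgeR or limma-voom, 1, HGF, passed by DESeq2, and 2 had an unadjusted p under 0.05 by edgeR. MET, the receptor of hepatocyte growth factor, had 116, 163 and 236 CPM against 143, 99.5 and 125 (0.48 ± 0.30, adjusted p = 0.310).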

How the data were processed

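RNA-seq of 3 high cuff pressure and 3 control rabbits was used. The authors' deposited table gives counts per gene and, FPKM, which divides them by transcript length and library size. HISAT2 2.0.4, StringTie 1.3.3b and edgeR are named in the submitters' processing notes; no build or counting option is named there. Gene numbers per pathway come from the authors' deposited pathway table.

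Counts were tested with edgeR 4.0.16 in R 4.3.3 (filterByExpr, TMM, robust quasi-likelihood fit on group, Benjamini-Hochberg over 13724 genes, adjusted p threshold 0.05). Scripts were tested on simulated data. The 6 genes and the 10 pathway and 14 marker lists were chosen with earlier results of these data known, so the 6 genes get no test. Each pathway list names its genes past the threshold (at most 4), or its tested gene with the highest mean CPM; the 3 nearest profiles per gene are named. For likeness, log2 CPM used a prior count of 2. NRG4 sits on more than 1 row and the row with more counts was used. List genes without a row are not analysed here.

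Replicate numbers do not pair the rabbits by the labels. The third control is numbered 4 by its label. The rabbits of a group are taken as separate animals because the study's design text gives 3 per group. Intervals and floors cover counting error only. DESeq2 1.42.0, limma 3.58.1, other scalings, no filter, a replicate block and leaving out each library were tried, and, chosen after seeing the data, fits without mitochondrial genes and with the trend by transcript length removed.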

Additional observations from a re-analysis of the deposited data

How the results depend on the processing

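Over 40 comparisons of FGFBP1, HBEGF, TGFA, EREG and EGFR with other normalizations, tools and filters, 39 had the same sign and 0 moved by more than 1.5-fold; the exception in sign was EGFR (0.14 with the length trend removed). Scaling by total counts lowered the median log2 fold change of all genes to -0.40, and that of EGFR to -0.41, without reversing the other 4. The number of genes called was 725 (503 higher, 222 lower) with TMM, 1630 (389 and 1241) with total counts, 2631 (1461 and 1170) with DESeq2 and 244 (198 and 46) with a replicate block. It ranged from 0 to 2623 with 1 library left out: 2623 without high cuff pressure replicate 1, 4 without replicate 2, 302 without replicate 3, and 76, 0 and 0 without control replicates 1, 2 and 3. The number of pathway genes called was 3, and it was 17 with DESeq2, 10 with total counts, 1 (ETV4) with the replicate block, 4 with no filter, without mitochondrial genes or with the length trend removed, and 0 to 12 with 1 library left out. The 17 of 83 pathway genes with DESeq2 stand beside 2631 of all 13724 genes, and the 10 of 83 with total counts beside 1630. For these changes the cause was not tested. Deviations of same-numbered libraries from their group means correlated at -0.28, -0.20 and -0.23, which gives no sign of pairing by number. With 3 libraries per group such correlations depend on each other, so they cannot exclude a pairing. The labels state none, and the block has no basis in them. The mean share of EGF among the ligands moved from 11.9% and 37.5% by FPKM to 35.1% and 64.6% by CPM, since CPM weighs long transcripts more. The groups did not overlap in this share by FPKM but did by CPM. Of the 18 nearest genes, 5 were named again after dividing by the SD and 16 with total counts. Depth limits AREG, EREG and the control level of FGFBP1, each of which rests on 59 or fewer counts per group. It also limits TGFA, with 48 counts under high cuff pressure, and HBEGF, with 61 in the controls.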
